A study of Mus musculus with 6 samples.

Results

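The aminoacyl-tRNA synthetases are the enzymes that join each amino acid to its transfer RNA, and their transcripts were compared between 2 groups of cultured mouse cells. The set holds 37 genes of the 19877 in the deposited table, chosen by name, with earlier results of these data known. It has 21 cytosolic genes, of which 19 encode enzymes or enzyme subunits and the others are Aimp1 and Aimp2, and 16 mitochondrial genes, whose symbols end in 2. All 37 were found, 15 of them under the older symbol without the final 1 (Aars for Aars1), and those older symbols are used here. Farsa, Farsb, Mars1 and Wars1 stand in the table under the names given.

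The cells are labelled ADSCs, which usually stands for stem cells derived from adipose tissue, a multipotent stromal population of fat. Both groups carry the genotype label WT, meaning wild type, and differ in treatment, which is a scrambled hairpin RNA in the scrambled group and knockdown of IFIT1 by a hairpin RNA in the knockdown group (3 libraries each). Interferon induces IFIT1, a protein that binds foreign RNA and limits its translation, and the title of the series asks about suppressed translation and muscle differentiation. The sources used here do not give the age and sex of the mice or the number of hairpins against Ifit1. Libraries of 1 number share a batch label, so each of the 3 batches holds 1 library of each group. Nothing in the labels says that the libraries came from separate cultures, so the p-values rest on the spread among these 6 libraries alone, and that spread may be technical.

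A synthetase first activates its amino acid with ATP and then transfers it to the matching tRNA, which carries it to the ribosome. The cytosol and the mitochondrion each have their own set of enzymes, encoded in the nucleus, although Kars and Gars make forms for both places from 1 gene and so have no partner ending in 2. In the cytosol several of the enzymes sit together in the multi-synthetase complex, held by the scaffold proteins Aimp1, Aimp2 and Eef1e1. The transcription factor ATF4, which is made when amino acids run short or the integrated stress response is active, is known to raise transcription of many cytosolic synthetase genes and of genes for amino acid synthesis and uptake. Transcript levels say nothing directly of how much tRNA was charged.

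ATF4 binds composite elements that hold the short site TGATGNAA (TTNCATCA on the other strand), and matches to these letters are shown for the members that carry them. RefSeq promoter windows on GRCm38.p6, running from 250 bases before to 50 bases after the start of transcription, were at hand for 28 of the 37 members. The sequences below are 5′ to 3′ on the strand of the gene, with matches in capitals. The first lines give 120 bases before the start, in 2 genes that were lower in the knockdown and hold a match (Gars, Tars), 1 that was lower and holds none (Sars) and 1 that was higher and holds none (Farsa).
Gars chr6:55037881-55038000, plus strand: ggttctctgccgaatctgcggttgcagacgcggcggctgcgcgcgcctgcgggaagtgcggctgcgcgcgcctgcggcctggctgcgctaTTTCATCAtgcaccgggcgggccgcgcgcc
Tars chr15:11399659-11399778, minus strand: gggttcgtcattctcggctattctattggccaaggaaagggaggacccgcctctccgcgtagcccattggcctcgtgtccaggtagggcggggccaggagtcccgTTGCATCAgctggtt
Sars chr3:108445260-108445379, minus strand: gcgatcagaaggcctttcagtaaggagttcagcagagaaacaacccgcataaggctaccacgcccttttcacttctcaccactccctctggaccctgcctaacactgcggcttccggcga
Farsa chr8:84856866-84856985, plus strand: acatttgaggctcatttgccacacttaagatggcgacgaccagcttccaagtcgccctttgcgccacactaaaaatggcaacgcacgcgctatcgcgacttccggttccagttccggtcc
The next lines give 30 bases around a match near the start in Aars, Iars and Yars.
Aars chr8:111033840-111033869, plus strand: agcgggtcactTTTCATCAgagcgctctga
Iars chr13:49682126-49682155, plus strand: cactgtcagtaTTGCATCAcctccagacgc
Yars chr4:129189895-129189924, plus strand: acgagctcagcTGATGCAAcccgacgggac

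Of the 11 cytosolic genes that were lower in the knockdown, 7 had a window, and 5 of the 7 (Aars, Gars, Iars, Tars and Yars) held TGATGNAA on either strand, while Eprs and Sars did not. None of the 5 higher cytosolic genes with a window (Farsa, Kars, Qars, Aimp1 and Aimp2) held it, nor did Farsb and Mars1 or any of the 14 mitochondrial genes with a window. The letters occur in 3.97% of all 32851 windows of this length and in 2.05% of the 10580 windows of tested genes. Counting the first transcribed base as 1, the matches shown began at base 10 in Aars, 30 bases upstream in Gars, at base 8 in Iars, 15 bases upstream in Tars and at base 4 in Yars. Aars holds another match, not shown, that begins 112 bases upstream. These starts are RefSeq's, and the gene starts in GENCODE M21 differ from them. CACGTG, the E-box bound by basic helix-loop-helix factors, was in the windows of Aars, Iars, Tars, Farsb and Ears2, against 7.15% of all windows and 10.4% of those of tested genes. It was thus in 3 of the 7 lower cytosolic genes with a window, which all hold TGATGNAA too, and in 0 of the 5 higher ones. GCATGCGC, the core of the motif of NRF1, a regulator of nuclear genes for mitochondrial proteins, was in those of Rars2, Vars2 and Wars2, against 2.71% of all windows and 5.66% of those of tested genes. CACGTG is its own reverse complement, GCATGCGC was searched on both strands, and no match of one motif overlapped a match of another in these windows. A match is only a description of the letters, and these counts were read after the calls were known.

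Ifit1 itself stood at 4.90, 3.75 and 4.97 FPKM (fragments scaled to gene length and sequencing depth) in scrambled libraries 1, 2 and 3 and at 1.76, 1.48 and 1.51 FPKM in knockdown libraries 1, 2 and 3. The groups did not overlap, and the log2 fold change (knockdown minus scrambled) was -1.27 ± 0.11 (SE, n = 3 and 3, limma adjusted p = 5.71e-05). All log2 fold changes here are on the log2(FPKM + 0.5) scale, and a gene is called where limma's p, adjusted by Benjamini-Hochberg over 10311 tested genes, is under 0.05. Between 32.21 and 40.57 M fragments per library could be recovered from the table. Of the tested genes 51.0% were called, 19.8% higher and 31.1% lower, and 61.1% had groups that did not overlap, so a call alone is common in these data. The median change of all tested genes was -0.05, and called genes changed by a median of 0.26 in size. Of 10 stromal markers, 9 were at or above 1 FPKM in every library, and the list summed to between 3186 and 3217 FPKM in the scrambled and between 3013 and 3021 FPKM in the knockdown libraries. The 9 were all tested and all called, 6 lower and 3 higher, with log2 fold changes from -0.86 to 0.50 and a median of -0.57, a wider range than that of the synthetases. Of 7 leukocyte markers, 6 were in the table and Cd68 and Cd14 reached 1 FPKM in every library (sum of the list 4.53 to 5.61 FPKM scrambled, 5.85 to 5.97 FPKM knockdown), and the 5 endothelial markers were each under 1 FPKM. The 5 epithelial markers summed to 1.80 to 2.07 FPKM in the scrambled and 0.595 to 1.03 FPKM in the knockdown libraries, and the 2 adipocyte markers in the table (of 5) to 0.732 to 1.06 and 0.533 to 0.941 FPKM. None of the listed markers in the table was at 0 in every library, and the part of these cell types in the results was not tested.

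The cytosolic genes moved in both directions. Of the 21, 11 fell, 8 rose and 2 (Farsb and Mars1) did not pass, so that 90.5% were called against 51.0% of all tested genes. The falls were 52.4% of the 21, beside 31.1% of all tested genes, and the rises 38.1%, beside 19.8%. The falls reached 0.720 times the scrambled level (Sars), the rises reached 1.2 times (Aimp2), and no member changed 2-fold or more. The median change of the 21 was -0.12 on the log2 scale. The groups did not overlap in 20 of them, all but Farsb, beside 61.1% of all tested genes. In such bulk libraries, a change in the share of cells of a type and a change of RNA per cell cannot be told apart. Every one of the 24 called members, cytosolic and mitochondrial, differed in 1 direction in all 3 batches. This follows from their groups not overlapping and adds nothing to it.

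**Figure D1:**
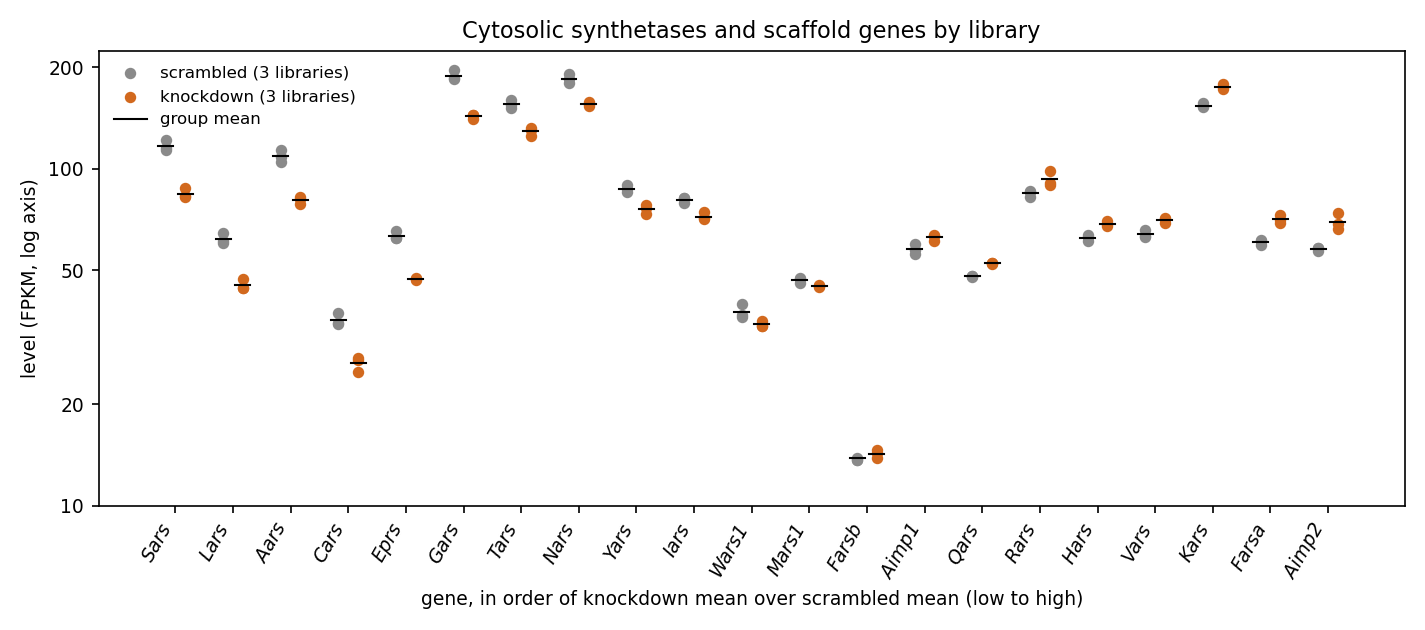
Level in FPKM (log axis) of the 21 cytosolic genes in each of 3 scrambled and 3 knockdown libraries; points are libraries and bars are group means, with genes in order of the knockdown mean over the scrambled mean. From Sars to Wars1 every knockdown library lies below every scrambled library, and from Aimp1 to Aimp2 every knockdown library lies above.

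A group of 6 cytosolic enzymes fell by about the same factor, to between 0.720 and 0.754 times the scrambled mean. Sars, which charges tRNA with serine and also serves the selenocysteine tRNA, was at 114, 115 and 122 FPKM in the scrambled and 82.6, 87.5 and 83.1 FPKM in the knockdown libraries. In GENCODE M21 (GRCm38) it is a protein-coding gene at chr3:108424865-108445209 on the minus strand. Its log2 fold change was -0.47 ± 0.04 (SE, limma adjusted p = 4.19e-05). Lars, the leucyl enzyme, which is also known as a leucine sensor for mTORC1, was at 60.1, 60.9 and 64.6 FPKM scrambled and 44.3, 44.3 and 47.1 FPKM knockdown (log2 fold change -0.45 ± 0.04, limma adjusted p = 6.72e-05). Aars, the alanyl enzyme, whose window holds TGATGNAA, was at 105, 108 and 114 FPKM against 78.7, 81.5 and 82.6 FPKM (log2 fold change -0.43 ± 0.04, limma adjusted p = 6.64e-05). In GENCODE M21 other genes, mainly Exosc6, share 15.1% of the exonic bases of Aars. In each of these 3 genes the lowest scrambled library was well above the highest knockdown library.

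Cars, the cysteinyl enzyme, went from 35.6 ± 1.5 to 26.5 ± 1.37 FPKM (SD, n = 3), a log2 fold change of -0.42 ± 0.05. Eprs encodes a fused enzyme that charges both glutamate and proline tRNAs. It lies at chr1:185363044-185428360 on the plus strand. It was at 62.1, 62.1 and 65.3 FPKM in the scrambled libraries and at 47.2, 46.6 and 47.4 FPKM in the knockdown libraries, a narrow spread in both groups (log2 fold change -0.42 ± 0.03, limma adjusted p = 3.49e-05). Gars, the glycyl enzyme, stood at 186, 185 and 196 FPKM scrambled and 140, 144 and 144 FPKM knockdown. Its log2 fold change was -0.41 ± 0.03 (limma adjusted p = 3.62e-05), and its promoter stretch above holds 1 match.

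The other 5 falls were smaller. Tars, the threonyl enzyme, went from 156 ± 4.46 to 129 ± 3.78 FPKM (log2 fold change -0.27), and Nars, the asparaginyl enzyme, from 185 ± 5.28 to 156 ± 2.17 FPKM (log2 fold change -0.25). Yars, the tyrosyl enzyme, was at 85.0, 86.8 and 89.6 FPKM against 73.4, 76.2 and 78.0 FPKM (log2 fold change -0.20 ± 0.03, limma adjusted p = 0.00147). Iars, the isoleucyl enzyme, was at 82.0, 81.8 and 79.3 FPKM against 70.7, 74.2 and 71.4 FPKM (log2 fold change -0.17 ± 0.03, limma adjusted p = 0.00209). In all 4 the groups stood apart, as in the 6 larger falls. Wars1, the tryptophanyl enzyme, is known in mammals as an interferon-gamma-induced gene. It was at 36.2, 36.7 and 39.7 FPKM in the scrambled libraries and 34.2, 34.1 and 35.2 FPKM in the knockdown libraries, so that the highest knockdown value lay close below the lowest scrambled one. Its log2 fold change of -0.12 ± 0.04 passed with a limma adjusted p of 0.0357. It no longer passed without scrambled replicate 2 or 3 or knockdown replicate 1 or 2 (adjusted p up to 0.104), without the filter on low values (0.0739) or with limma without trend (0.0660), and under median centring its change was -0.05 (adjusted p = 0.285).

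Rising cytosolic genes included both named scaffold genes. Aimp2, a scaffold protein of the complex, was at 58.3, 58.0 and 57.0 FPKM scrambled and 73.7, 68.4 and 66.1 FPKM knockdown, the largest rise among the 21 cytosolic genes (log2 fold change 0.26 ± 0.04, limma adjusted p = 0.000949). In GENCODE M21 it lies at chr5:143902704-143909847 on the minus strand, and 29.4% of the exonic bases are shared with Eif2ak1 on the opposite strand, and without a stated strand setting the fragments of the 2 genes cannot be told apart there. Aimp1, the other scaffold gene of the set, went from 57.7 ± 1.93 to 62.7 ± 1.33 FPKM (limma log2 fold change 0.12 ± 0.03, adjusted p = 0.0179). Its call was lost without scrambled replicate 1 or 2 or knockdown replicate 1 or 2 (adjusted p between 0.0539 and 0.0737), when rescaled to TPM (log2 fold change 0.07, adjusted p = 0.105) and under cyclic loess (0.07, adjusted p = 0.123).

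Farsa and Farsb encode the subunits of 1 enzyme, the phenylalanyl synthetase. Farsa was at 61.3, 60.9 and 59.2 FPKM in the scrambled libraries and 72.9, 69.1 and 70.5 FPKM in the knockdown libraries (log2 fold change 0.23 ± 0.03, limma adjusted p = 0.000531). Farsb was at 13.7, 13.8 and 13.7 FPKM against 14.3, 14.6 and 13.8 FPKM, and its groups overlapped (log2 fold change 0.04 ± 0.04, adjusted p = 0.361). Farsb had the lowest level per length of the 21 cytosolic genes, and Farsa stood at 4.39 ± 0.0787 times the Farsb level in the scrambled and 4.99 ± 0.212 times in the knockdown libraries (SD, n = 3). That ratio did not overlap between groups (exact permutation p = 0.1, two-sided, the smallest that 3 against 3 libraries allow), and it was computed after the levels had been seen. Its size rests on the gene lengths used for the FPKM, which were not examined here. Recovered fragments per library ran from 4106 to 5227 for Farsa and from 3000 to 3557 for Farsb. In GENCODE M21 Farsa has 4538 exonic bases and Farsb 2620.

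Kars, the lysyl enzyme, was at 154, 157 and 152 FPKM scrambled and 178, 175 and 172 FPKM knockdown (log2 fold change 0.18 ± 0.03, limma adjusted p = 0.000563). Hars, the histidyl enzyme, went from 62.4 ± 1.23 to 68.7 ± 1.17 FPKM, and Vars, the valyl enzyme, from 63.8 ± 1.51 to 70.5 ± 1.43 FPKM (log2 fold change 0.14 in each, limma adjusted p = 0.00452 and 0.00501). Qars, the glutaminyl enzyme, was at 47.6, 48.0 and 48.1 FPKM scrambled and 52.6, 52.3 and 52.4 FPKM knockdown, so a rise of 0.13 ± 0.03 (log2) stood against a very small spread (limma adjusted p = 0.00394). Rars, the arginyl enzyme, was at 85.2, 86.0 and 82.2 FPKM against 98.4, 90.7 and 89.6 FPKM (log2 fold change 0.14 ± 0.04, limma adjusted p = 0.0196). Knockdown library 1 held the highest Rars value, and without knockdown replicate 1 the change was 0.09 (adjusted p = 0.0502). The Rars call was also lost without scrambled replicate 3 (adjusted p = 0.0658), without the filter on low values (0.0593), rescaled to TPM (0.0730), under quantile normalization (0.0557), cyclic loess (0.137) and limma without trend (0.0501). Mars1, the methionyl enzyme, stood at 46.9, 47.3 and 45.7 FPKM scrambled and 45.3, 44.9 and 44.5 FPKM knockdown. Its groups did not overlap, but its log2 fold change of -0.05 ± 0.03 did not pass (limma adjusted p = 0.149).

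**Figure D2:**
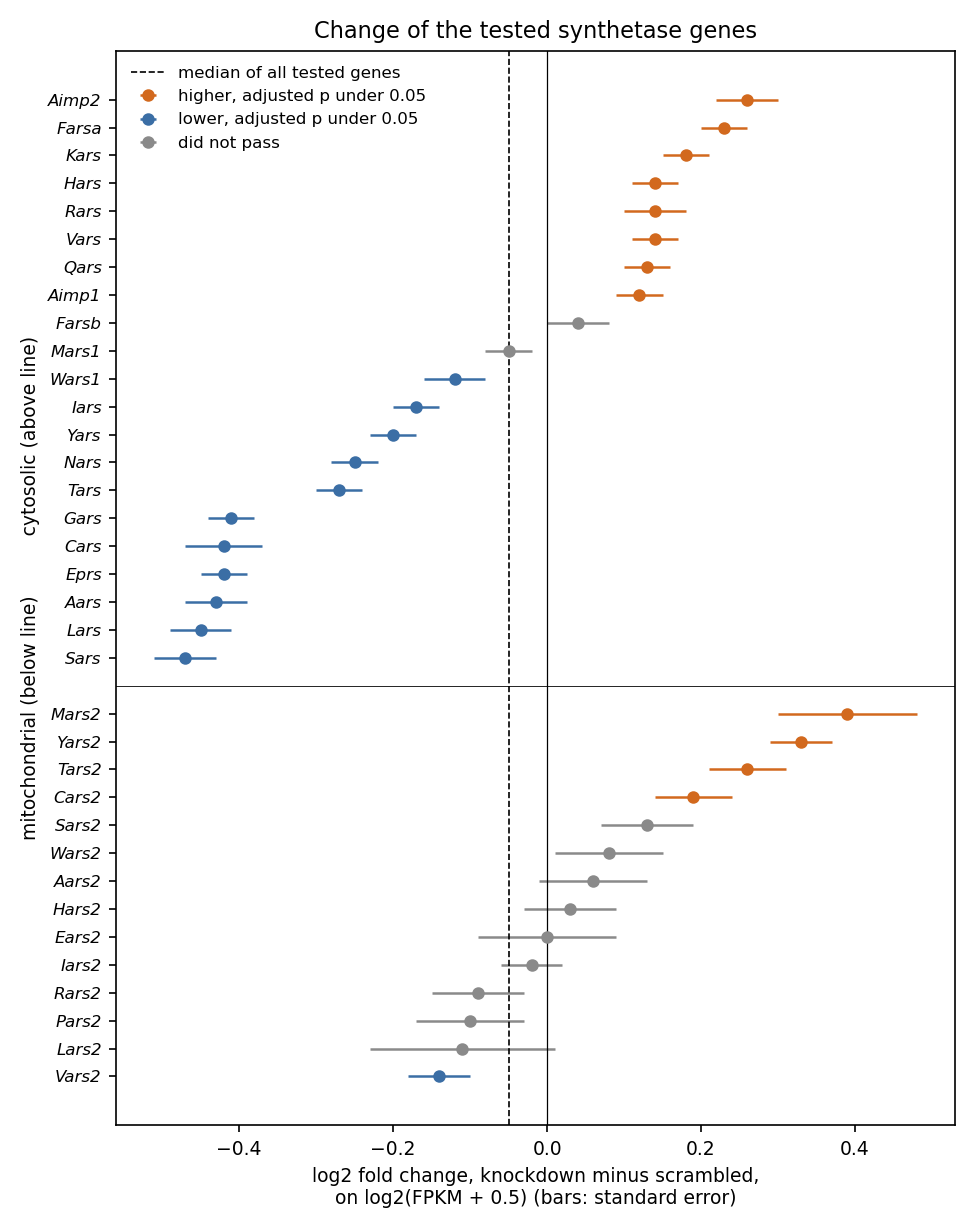
Log2 fold change (knockdown minus scrambled, on log2(FPKM + 0.5)) of the 35 tested members with its standard error, cytosolic genes above the line and mitochondrial genes below; the dashed line is the median of all tested genes, -0.05. Cytosolic genes run from -0.47 (Sars) to 0.26 (Aimp2), and mitochondrial genes from -0.14 (Vars2) to 0.39 (Mars2).

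FPKM is scaled to gene length, so order and ratios between genes rest on the lengths used, which were not examined here. Recovered fragments and FPKM did not always go together. Nars2 had 264 to 360 fragments per library at a mean of 0.536 FPKM, and Sars2 had 258 to 328 at 6.82 FPKM. In GENCODE M21 their exonic bases number 6967 and 3313. Over all 6 libraries the highest means were those of Nars (170 FPKM), Gars (166 FPKM), Kars (165 FPKM) and Tars (142 FPKM), and the lowest cytosolic mean was that of Farsb (14.0 FPKM). Gars and Nars overlapped in the scrambled libraries, where both stood above Kars and Tars, which overlapped each other. In the knockdown libraries Kars was above all the other cytosolic genes, followed by Nars, Gars and Tars without overlap. This order was not tested. Summed over the 21 genes, the level was 1743, 1773 and 1798 FPKM in the scrambled and 1615, 1620 and 1611 FPKM in the knockdown libraries, 0.912 times as much. The 11 genes that fell summed to 1122 ± 29.7 and 894 ± 14.6 FPKM and the 8 that rose to 589 ± 6.5 and 663 ± 14.1 FPKM (SD, n = 3). Those subsets were chosen by their calls, so their sums are a description only.

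Genes of both catalytic classes, and genes inside and outside the complex, moved in both directions. Class I and class II synthetases differ in the fold of the catalytic domain, and Eprs, which holds both, was left out of this split. Class I counted 3 rises and 5 falls among 9 genes (median change -0.12 on the log2 scale), and class II likewise 3 rises and 5 falls among 9 (median -0.25), with 1 in each class that did not pass. Of the 12 cytosolic enzyme genes outside the complex, 3 (Farsa, Hars and Vars) rose and 8 fell, with a median of -0.22. Of the 7 enzyme genes of the complex in the set, 3 (Kars, Qars and Rars) rose, 3 (Eprs, Iars and Lars) fell and Mars1 did not pass, with a median of -0.05. With Aimp1 and Aimp2, the complex counted 5 rises and 3 falls of 9 and a median of 0.12. No difference between these subgroups was tested.

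Most mitochondrial enzymes stood at lower levels than the cytosolic ones. Of the 16, 14 were tested, and of these 4 (Mars2, Yars2, Tars2 and Cars2) rose, 1 (Vars2) fell and 9 did not pass. The 5 calls are 35.7% of the 14 tested genes, below the 51.0% of all tested genes. The rises were 28.6% of the 14, beside 19.8% of all tested genes, and the fall 7.14%, beside 31.1%. The difference between compartments was not tested. The median log2 fold change was 0.04, and the groups did not overlap in 5 genes, beside 61.1% of all tested genes. The median was 0.20 under quantile normalization and 0.18 under cyclic loess, each with 6 genes higher and 0 lower, 0.11 under median centring (5 higher, 0 lower) and 0.00 in TPM (3 higher, 1 lower). Recovered fragments per library ran from 240 to 4214 for a mitochondrial gene and from 1283 to 27503 for a cytosolic gene. Standard errors of the log2 fold changes ran from 0.04 to 0.12 in the tested mitochondrial genes and from 0.03 to 0.05 in the cytosolic genes. The cause of that difference was not tested. The sum over the 16 genes was 118 ± 3.33 FPKM in the scrambled and 126 ± 3.71 FPKM in the knockdown libraries (SD, n = 3). In library 3 of both groups it was 122 FPKM. All genes of the table summed to between 378147 and 380385 FPKM in the scrambled and between 389838 and 392721 FPKM in the knockdown libraries. That difference bears on this sum and on the cytosolic one.

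**Figure D3:**
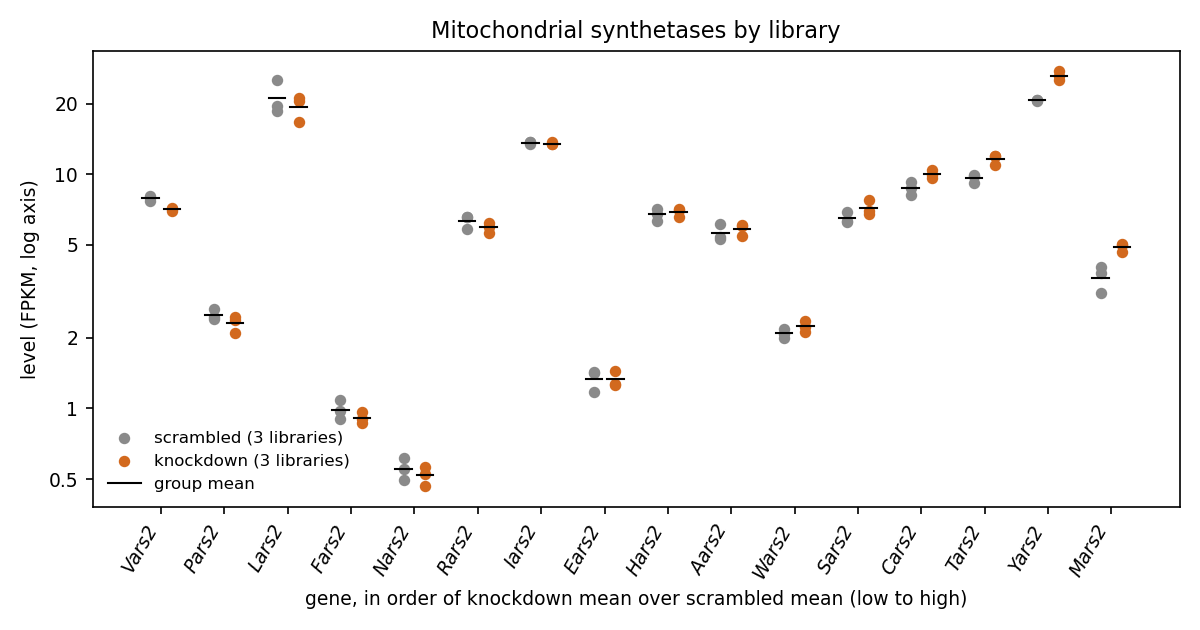
Level in FPKM (log axis) of the 16 mitochondrial genes in each of 3 scrambled and 3 knockdown libraries; points are libraries and bars are group means, with genes in order of the knockdown mean over the scrambled mean. Groups stand apart for Vars2 at the low end and for Cars2, Tars2, Yars2 and Mars2 at the high end, and the 2 lowest genes, Fars2 and Nars2, were not tested.

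Mars2, the mitochondrial methionyl enzyme, was at 4.00, 3.77 and 3.10 FPKM in the scrambled and 5.01, 4.97 and 4.64 FPKM in the knockdown libraries. It lies at chr1:55237177-55248470 on the plus strand. Its log2 fold change of 0.39 ± 0.09 was the largest rise of the 35 tested members (limma adjusted p = 0.00532). Yars2, the tyrosyl enzyme and the mitochondrial gene with the highest mean level, was at 20.8, 20.6 and 20.7 FPKM against 27.4, 26.2 and 25.1 FPKM, with scrambled libraries that nearly coincide (log2 fold change 0.33 ± 0.04, limma adjusted p = 0.000237). Tars2, the threonyl enzyme, was at 9.15, 9.94 and 9.80 FPKM against 12.0, 10.9 and 11.9 FPKM (log2 fold change 0.26 ± 0.05, limma adjusted p = 0.00346). Cars2, the cysteinyl enzyme, is also known to make persulfides from cysteine. It was at 9.27, 8.17 and 8.69 FPKM scrambled and 9.87, 10.4 and 9.66 FPKM knockdown (log2 fold change 0.19 ± 0.05, limma adjusted p = 0.0195). The Cars2 call was lost without scrambled replicate 2 (adjusted p = 0.0703), scrambled replicate 3 (0.0511) or knockdown replicate 2 (0.0718), and without the filter on low values (0.0517) or rescaled to TPM (0.0516).

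Vars2, the valyl enzyme, was at 7.88, 8.09 and 7.69 FPKM in the scrambled and 7.17, 7.11 and 6.98 FPKM in the knockdown libraries. The groups stood apart, with a log2 fold change of -0.14 ± 0.04 (limma adjusted p = 0.0228). That call was lost without scrambled replicate 1 (adjusted p = 0.0636), scrambled replicate 2 (0.0804), knockdown replicate 2 (0.0546) or knockdown replicate 3 (0.0501), and under median centring (-0.08, 0.185), quantile normalization (-0.06, 0.289) and cyclic loess (-0.07, 0.255). In GENCODE M21 the antisense gene Gm20483 shares 8.52% of its exonic bases.

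Among the mitochondrial genes that did not pass, Sars2, the seryl enzyme, had the highest value, a log2 fold change of 0.13 ± 0.06 (limma adjusted p = 0.112). It was at 6.26, 6.90 and 6.28 FPKM scrambled and 7.78, 6.94 and 6.77 FPKM knockdown, with overlap. It passed under median centring (0.20, adjusted p = 0.0352), quantile normalization (0.23, 0.0224) and cyclic loess (0.22, 0.0287). Wars2, the tryptophanyl enzyme, went from 2.09 ± 0.101 to 2.24 ± 0.132 FPKM and passed under quantile normalization (0.27, adjusted p = 0.00936) and cyclic loess (0.26, 0.0128). Lars2, the leucyl enzyme, had the largest SD of the 16 mitochondrial genes in both groups. It was at 19.6, 18.5 and 25.1 FPKM in the scrambled and 20.6, 21.1 and 16.6 FPKM in the knockdown libraries, so that batch 3 held both the highest scrambled and the lowest knockdown value. Its log2 difference was 0.07 in batch 1, 0.19 in batch 2 and -0.58 in batch 3 (all together -0.11 ± 0.12, limma adjusted p = 0.477).

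Aars2 (alanyl, 5.59 ± 0.442 to 5.83 ± 0.343 FPKM), Hars2 (histidyl, 6.73 ± 0.405 to 6.89 ± 0.262 FPKM) and Iars2 (isoleucyl, 13.6 ± 0.118 to 13.5 ± 0.171 FPKM) overlapped between groups and did not pass. Iars2 shares 24.2% of its exonic bases with genes on the opposite strand. Rars2 (arginyl, 6.33 ± 0.421 to 5.92 ± 0.280 FPKM) and Pars2 (prolyl, 2.51 ± 0.126 to 2.31 ± 0.183 FPKM) also overlapped between groups. Ears2 charges glutamate and, with a later amidation step, supplies mitochondrial glutaminyl-tRNA. It was at 1.33 ± 0.147 FPKM in the scrambled and 1.33 ± 0.110 FPKM in the knockdown libraries. Fars2 (phenylalanyl) and Nars2 (asparaginyl) did not reach 1 FPKM in 3 libraries and were not tested. Fars2 was at 0.973, 1.09 and 0.901 FPKM scrambled and 0.969, 0.871 and 0.899 FPKM knockdown, and Nars2 at 0.495, 0.554 and 0.612 FPKM against 0.466, 0.524 and 0.565 FPKM. Both overlapped between groups.

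The cytosolic and mitochondrial enzymes for 1 amino acid could be set side by side in 14 pairs with both genes tested, Eprs standing in 1 pair for glutamate and in 1 for proline. In 4 pairs both genes were called (Cars with Cars2, Tars with Tars2, Vars with Vars2 and Yars with Yars2), and in all 4 they moved in opposite directions. The ratio of Yars to Yars2 was 4.09, 4.22 and 4.33 in the scrambled and 2.68, 2.91 and 3.11 in the knockdown libraries. Tars stood at 16.2 ± 0.347 times Tars2 in the scrambled and 11.1 ± 0.703 times in the knockdown libraries, and Cars at 4.10 ± 0.319 and 2.66 ± 0.141 times Cars2 (SD, n = 3). For valine the ratio went the other way, from 8.10 ± 0.0810 to 9.94 ± 0.0720. That these 4 ratios did not overlap between groups follows from the opposite calls of their genes, whose own groups stood apart. In all, 11 of the 14 ratios did not overlap, and 10 of the 11 were lower in the knockdown. Lack of overlap by itself fixes the exact permutation p of each at 0.1 (two-sided), the smallest the design allows. In each of the 10 the cytosolic gene was itself called lower or, for Mars1 with Mars2, the mitochondrial gene higher. The count therefore largely restates the calls of single genes. Among those 11, Sars stood at 18.1 ± 1.38 times Sars2 in the scrambled and 11.8 ± 1.06 times in the knockdown libraries, Aars at 19.6 ± 1.75 and 13.9 ± 0.951 times Aars2, and Mars1 at 13.0 ± 1.58 and 9.22 ± 0.330 times Mars2. Over the 14 pairs, tested as 1 family, no ratio could pass a threshold of 0.05 in such a design. The pairs were compared after the levels had been seen, and the 8 genes of the 4 pairs kept their direction under all 4 other scalings. Under each of those scalings 3 of the 4 pairs had both genes called, since Cars2 was not called in TPM and Vars2 was not called under median centring, quantile normalization or cyclic loess.

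**Figure D4:**
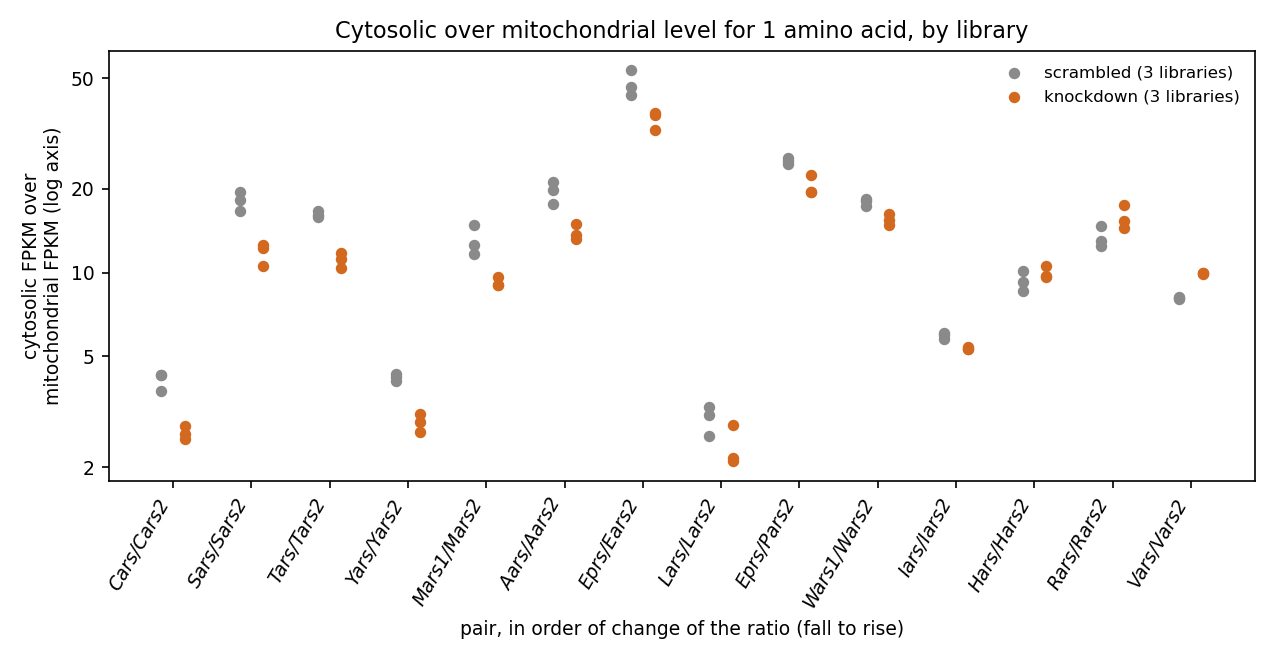
Cytosolic FPKM over mitochondrial FPKM (log axis) for 14 pairs of enzymes for 1 amino acid, in each of 3 scrambled and 3 knockdown libraries, in order of the change of the ratio. The ratio is lower in every knockdown library for Cars, Tars and Yars over their partners and higher in every knockdown library for Vars over Vars2.

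Proteins that work beside the synthetases were taken as a list of 16 tRNA charging partners, of which 5 rose, 2 fell and 9 did not pass, a called share of 43.8% beside 51.0% of all tested genes. The median log2 fold change of the list was -0.00, and 0.14 under quantile normalization and 0.12 under cyclic loess. Eef1e1, the scaffold protein also called AIMP3, was at 45.1, 44.1 and 40.9 FPKM scrambled and 61.5, 58.8 and 55.2 FPKM knockdown (log2 fold change 0.43, limma adjusted p = 0.00022), a larger value than those of Aimp1 and Aimp2. Elac2, which trims the 3′ end of tRNA precursors, went from 12.9 ± 0.184 to 17.5 ± 0.393 FPKM, a change of 0.42 on the log2 scale (limma adjusted p = 6.45e-05). Xpot, the nuclear exporter of tRNA, fell from 45.3 ± 1.79 to 37 ± 0.974 FPKM (log2 fold change -0.29), and Pstk, a kinase on the way to selenocysteinyl-tRNA, from 9.0 ± 0.152 to 6.90 ± 0.432 FPKM (log2 fold change -0.36). Dars, the aspartyl enzyme, which is in the complex but not in the set of 37, did not pass (44.3 ± 1.07 against 43.8 ± 1.92 FPKM, limma adjusted p = 0.720). The count of rises in this list was 3 without the filter, rescaled to TPM, under limma-voom, and without scrambled replicate 1, scrambled replicate 3, knockdown replicate 1 or knockdown replicate 3.

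Of 22 enzymes that modify tRNA, 21 were tested, and 14 rose, none fell and 7 did not pass, with a median log2 fold change of 0.25. The share that rose was 66.7%, beside 19.8% of all tested genes. Trmt61a, which with Trmt6 methylates adenosine in the T loop, went from 7.37 ± 0.267 to 12.0 ± 1.86 FPKM (log2 fold change 0.66). Pus1, a pseudouridine synthase, went from 26.5 ± 1.09 to 36.1 ± 1.02 FPKM (0.44), Trmt10a, a guanosine methyltransferase, from 4.89 ± 0.136 to 6.67 ± 0.257 FPKM (0.41), and Nsun2, a cytosine methyltransferase, from 57.7 ± 1.31 to 73.6 ± 1.69 FPKM (0.35). Elp3 had a log2 fold change of -0.08 and an unadjusted limma p of 0.0396, the one gene of the list lower at an unadjusted p under 0.05. One gene of the list was called lower without the filter and when rescaled to TPM.

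The third list held 22 genes known as targets of ATF4 outside the synthetases, with Atf4 itself. All 22 fell, beside 31.1% of all tested genes, with a median log2 fold change of -0.67. Trib3, a pseudokinase, was at 25.9, 25.7 and 31.2 FPKM in the scrambled and 5.00, 5.88 and 6.06 FPKM in the knockdown libraries (log2 fold change -2.19 ± 0.09, limma adjusted p = 7.51e-06), the largest fall of the list and far apart between groups. Asns, asparagine synthetase, went from 76.1 ± 2.91 to 48.9 ± 0.699 FPKM (log2 fold change -0.63), Atf5, a related transcription factor, from 87.8 ± 4.22 to 46.9 ± 1.55 FPKM (-0.90), and Aldh18a1, an enzyme of proline synthesis, from 89.8 ± 2.29 to 59.6 ± 1.90 FPKM (-0.59). The list was chosen with a fall of such targets in these libraries already known, so its count is not independent evidence. Of the synthetases, none of the 11 falls reached the list's median size, the largest being Sars at -0.47. The list itself ran from -2.19 to -0.19, and some of its genes fell less than Sars or Gars (-0.41). The difference in size between the list and the synthetases was not tested.

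The scaling between libraries shifted the smaller changes. Higher genes made up 38.9% of all calls as deposited, 27.6% when rescaled to TPM, 56.7% under median centring, 52.4% under quantile normalization and 47.8% under cyclic loess. The cytosolic counts were 6 higher and 12 lower in TPM, 9 and 10 under median centring, 7 and 12 under quantile normalization and 6 and 12 under cyclic loess. Farsb was called higher under median centring (0.11, limma adjusted p = 0.0464), and Mars1 lower in TPM (-0.10, 0.0180), under quantile normalization (-0.09, 0.0354) and under cyclic loess (-0.09, 0.0349). No called member changed direction under these scalings.

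**Figure D5:**
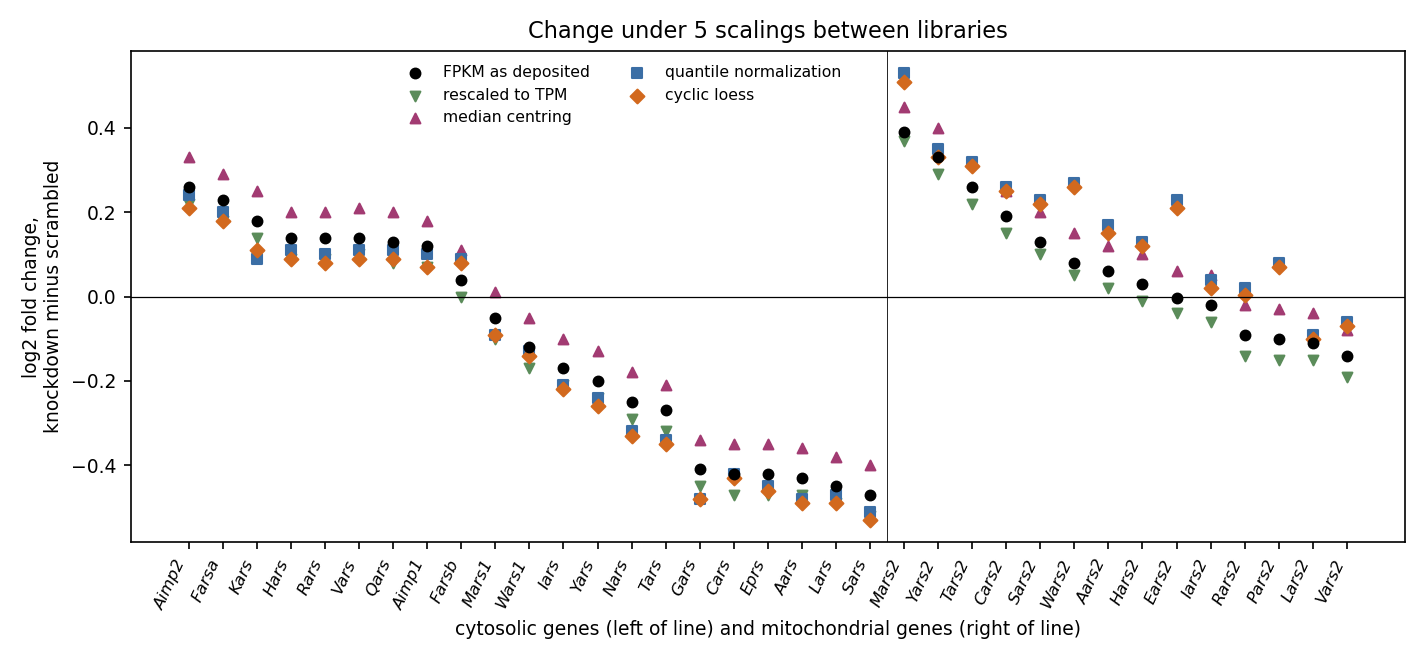
Log2 fold change (knockdown minus scrambled) of the 35 tested members under 5 scalings between libraries, cytosolic genes left of the line and mitochondrial genes right of it. Cytosolic genes from Sars to Iars lie below 0 and those from Aimp1 to Aimp2 above 0 under every scaling drawn, while genes near 0, such as Farsb, Mars1, Ears2, Iars2, Pars2 and Rars2, lie on both sides.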

How the data were processed

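The authors deposited 1 table of FPKM values for 19877 genes in 6 messenger RNA libraries, made from bead-captured, fragmented mRNA per the labels' protocols. The submitters' processing notes name GRCm38, mm10 and GRCm39 without their roles. For the aligner, counting tool, annotation and strand setting, nothing is given in the sources used here, so fragments of genes that overlap on opposite strands cannot be told apart (15 members share exonic bases with such a gene in GENCODE M21). Whole fragments were recovered from the steps between FPKM values (all 19877 genes within 0.002 of a whole number), and gave depths of 40.57, 37.09 and 37.67 M fragments in scrambled and 36.54, 32.21 and 40.19 M in knockdown libraries 1, 2 and 3.

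Genes with at least 1 FPKM in at least 3 of 6 libraries (10311) were changed to log2(FPKM + 0.5), which understates changes of low genes, and tested with limma 3.58.1 in R 4.3.3 (trend on the mean level, two-sided, Benjamini-Hochberg over all tested genes, threshold 0.05). The code was tested on simulated data. Errors are SDs over libraries or, after a log2 fold change, standard errors. Libraries of 1 number share a batch label, which pairs them. The deviations of such libraries from their group means correlated at 0.086, 0.012 and 0.189. Between scrambled and knockdown libraries of different numbers the correlations ran from -0.173 to 0.114, a range that overlaps those values. A fit with the batch number as a replicate block was an alternative. The members and the gene lists were chosen with earlier results of these data known. All 37 members, Ifit1 and, of each related list, up to 4 tested genes of smallest p are named, while Dars and Elp3 were named after their values were seen, as were Trmt6 and Atf4 without values. Alternatives covered the pseudocount (0.1 and 1), the filter (none, or a mean FPKM of at least 5), 4 other scalings, limma without trend, limma-voom on recovered fragments, the block, and leaving out each library. Promoter windows were RefSeq's on GRCm38.p6. One sequence stretch is not reported here.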

Additional observations from a re-analysis of the deposited data

How the results depend on the processing

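Of the 24 called members, 19 kept their call and direction under each of the alternatives that tested them (17 in all, 6 of which leave out a library), among them 10 of 11 cytosolic falls and 6 of 8 cytosolic rises. The exceptions were Wars1, Rars, Aimp1, Cars2 and Vars2. With the batch number as a replicate block, 5229 genes were called (2055 higher, 3174 lower), the cytosolic counts were 8 higher and 11 lower and the mitochondrial counts 4 and 1, and no member's call changed. The count of all lower genes was 2042 with a mean FPKM of at least 5, where fewer genes were tested (7342). The lower count of mitochondrial genes, 1 as reported (Vars2), was 0 under median centring, quantile normalization and cyclic loess and ran from 0 to 1 leaving out a library. The count of higher tRNA charging partners, 5 as reported, was 3 without the filter, in TPM and under limma-voom and ran from 3 to 5 leaving out a library. The count of lower tRNA modification enzymes, 0 as reported, was 1 without the filter and in TPM.

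Changes of sign were limited to members that did not pass. Rescaled to TPM, Farsb was at -0.000183 and Hars2 at -0.01. Under median centring Mars1 was at 0.01, Ears2 at 0.06 and Iars2 at 0.05. Under quantile normalization and cyclic loess, Ears2 was at 0.23 and 0.21, Iars2 at 0.04 and 0.02, Pars2 at 0.08 and 0.07, and Rars2 at 0.02 and 0.00392. Leaving out a library, Ears2 ran from -0.07 to 0.03 (above 0 without scrambled replicate 1 or 3 or knockdown replicate 1 or 2, at 0.02 to 0.03), Lars2 from -0.19 to 0.02 (without scrambled replicate 3) and Hars2 was at -0.01 without scrambled replicate 2. Apart from the counts that rest on fewer tested genes, the cause was not tested. No scaling moved the median of all genes by over 0.1.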
